A study of Mus musculus with 39 samples.

Results

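mir-135a and mir-135b are related microRNAs (miRNAs) reported to act on Apc, and their levels were followed in mouse embryonic stem cells (ESCs) on the way to definitive endoderm (DE). They are the array entries mmu-miR-135a and mmu-miR-135b, 2 of the 650 miRNAs on the array. The pair was picked by name with results of these arrays known, because mir-135a had been seen to differ between Activin A and control at day 3. The control and Activin A arrays of day 3 are therefore described without any test. The combined treatment of day 3 holds the same agent on the same day, so no test of mir-135a on it is given either.

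The study looked for miRNAs that respond when Activin A and Wnt3a act together on ESCs. Total RNA was measured on 39 single-colour Agilent miRNA arrays, in 13 groups of 3. The ES group held undifferentiated ESCs, which had grown with LIF on mouse fibroblast feeders treated with mitomycin C. The other 12 groups were freed of feeders on gelatin, moved to collagen-coated plates and sampled after 1, 3 or 5 days. They received 50 ng/ml Wnt3a, 100 ng/ml Activin A, Activin A plus Wnt3a at the same doses, or neither (control). The medium was RPMI with B27 and sodium butyrate, and by the study's methods the controls had it without growth factors. The methods name the TCL-1 line, derived from 129/SvJae mice, which the labels leave out. The labels do not say whether replicates were separate cultures, so p-values measure the spread between these samples.

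A miRNA guides a silencing complex to messenger RNAs that pair with its seed, the bases next to its first base, and lowers the protein made from them. Apc belongs to the complex that marks beta-catenin for destruction, and Wnt ligands such as Wnt3a keep beta-catenin from that fate. Activin A signals through Smad proteins as Nodal does in the embryo, and both pathways take part in forming mesoderm and endoderm from pluripotent cells.

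The mature sequences below are those of the strand read as mir-135a and of the 3p strands of the hairpins. They come from RefSeq on build GRCm38.p6, with the seed (bases 2 to 8) in capitals.
mmu-miR-135a-5p: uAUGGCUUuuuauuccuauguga
mmu-miR-135a-1-3p: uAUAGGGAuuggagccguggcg
mmu-miR-135a-2-3p: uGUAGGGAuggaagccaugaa
mmu-miR-135b-3p: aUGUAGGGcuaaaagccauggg
mmu-miR-135a-5p, the strand called mir-135a on the array, is 23 bases long and has 2 genes with the same mature sequence. Mir135a-1 gives it at chr9:106154140-106154162 on the + strand, within the span of Glyctk and D030055H07Rik. Mir135a-2 gives it at chr10:92072141-92072163 on the - strand, with Rmst as the nearest other gene. The array signal of mir-135a therefore cannot be divided between Mir135a-1 and Mir135a-2. The other strand of Mir135a-1 lies at chr9:106154179-106154200 (+) and that of Mir135a-2 at chr10:92072104-92072124 (-), and their seeds differ. Mir135b lies within the span of Lemd1 and Gm29695, and its 3p strand is at chr1:132198142-132198163 (+). mmu-miR-135b-5p is the strand that the array calls mir-135b. The array also holds mir-135a*, a strand opposite to mir-135a, without stating which hairpin it comes from, and it holds no mir-135b*.

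Each array carried 13000 miRNA spots, and the scanner software detected between 183 and 375 miRNAs per array, with a median of 296. The local background around the spots had a median of 35 to 42 intensity units on each array, with 0 saturated spots. The number of arrays, 3 per group, limits the precision of each mean. Wnt3a day 5 replicate 1 stood apart from the rest. Across 143 miRNAs that no array missed, its root mean square difference from its own group was 1.14 (log2), against 0.0769 to 0.348 on arrays outside that group. Where leaving it out changed the call or direction of a member, both results are given. The series-level table disagreed with the scanner files on treatment: of its 39 columns, 9 named for Activin A alone carry values of arrays that the scanner files give as Activin A plus Wnt3a, and 9 the reverse, each of the same day and replicate number. The scanner files' labels are used here. Should those labels be at fault, Activin A with Wnt3a and Activin A without it exchange places in every level, comparison with control and comparison over time. Adding Wnt3a to Activin A would then change sign. Adding Activin A to Wnt3a, and the differences between effects, would take other values.

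mir-135a was undetected in ESCs and at day 1 under every treatment, whereas mir-135b was detected on all 39 arrays. On the 15 arrays of ESCs and day 1, the 30 probe totals of mir-135a lay between -1.46 and 2.80 intensity units, and 3 of 300 spots were well above background. mir-135a was detected on all 24 arrays of days 3 and 5. Levels below are log2 of the normalised signal, with undetected values set to a floor of 1.00 on that scale.

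At day 3, mir-135a levels were 5.32, 5.30 and 5.16 in control and 5.12, 5.16 and 5.05 with Wnt3a. They were 3.64, 3.74 and 4.19 with Activin A, and 3.53, 4.07 and 4.35 with Activin A plus Wnt3a. All 6 arrays with Activin A thus lay below all 6 arrays without it, and the control and Wnt3a arrays overlapped. On 3 of these arrays (Activin A replicates 1 and 2, and Activin A plus Wnt3a replicate 1) the deposited total of mir-135a held its first probe alone, which lowers the level. With both probes counted on every array, the levels were 4.28, 4.40 and 4.39 with Activin A alone, 4.30, 4.26 and 4.55 for the combined treatment, 5.38, 5.38 and 5.24 in control and 5.22, 5.26 and 5.18 with Wnt3a, with the same separation. At day 5, mir-135a levels were 7.03, 6.93 and 7.0 in control and 5.40, 5.43 and 5.21 with Activin A. With Activin A plus Wnt3a they were 4.99, 5.07 and 5.16. With Wnt3a they were 3.93, 6.93 and 7.17, so that replicate 1 lay below every other day 5 array and the other 2 lay with control. mir-135a was higher at day 5 than at day 3 in control and in both groups given Activin A.

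mir-135b levels lay in a narrower band. They were 7.54, 7.77 and 7.63 in ESCs. At day 1 they were 8.07, 8.05 and 8.18 in control, 8.22, 8.18 and 8.22 with Wnt3a, 8.01, 7.88 and 7.98 with Activin A, and 8.05, 8.11 and 8.07 with Activin A plus Wnt3a. The control arrays of day 1 were all above the ESC arrays, and the day 1 groups lay close together. At day 3 mir-135b levels were 7.95, 7.95 and 7.85 in control, 7.73, 7.71 and 7.82 with Activin A, and 7.91, 7.88 and 7.95 with Activin A plus Wnt3a. The Wnt3a arrays of day 3, at 8.32, 8.29 and 8.40, were above all other mir-135b values. At day 5 mir-135b levels were 7.80, 7.85 and 7.82 in control and 8.18, 8.15 and 8.05 with Activin A. They were 8.01, 8.01 and 8.18 with Activin A plus Wnt3a, and 6.14, 7.91 and 7.95 with Wnt3a. As with mir-135a, Wnt3a replicate 1 gave the lowest mir-135b value of the day, and both groups given Activin A lay above control.

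**Figure D1:**
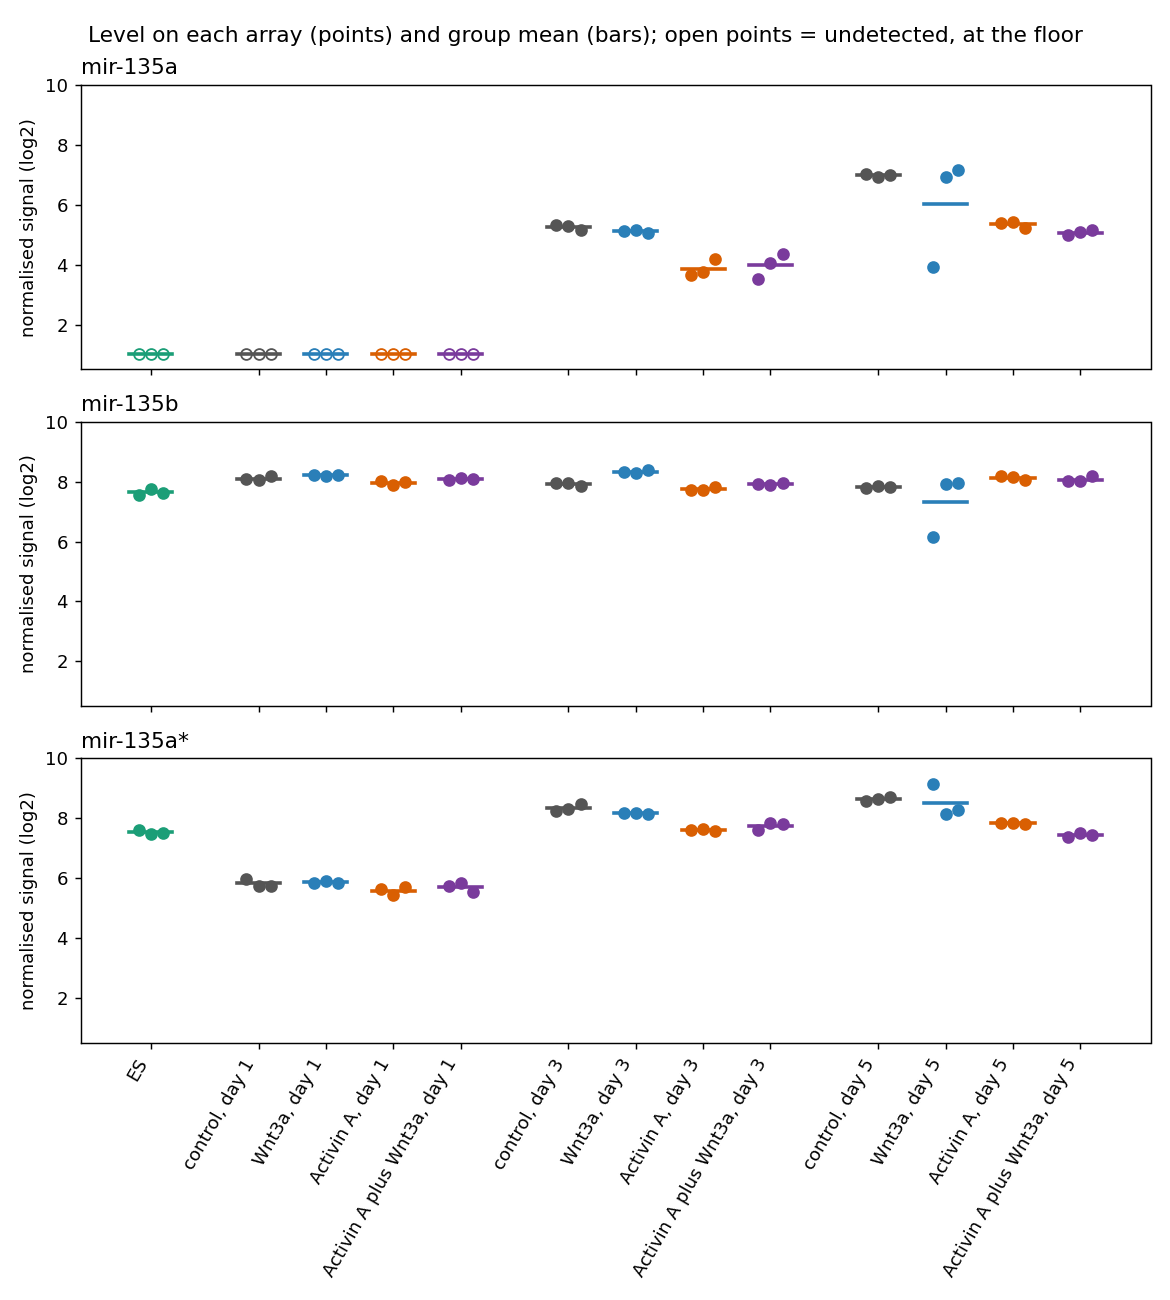
Normalised signal (log2, vertical axis) of mir-135a, mir-135b and mir-135a* on each array, by group (horizontal axis). Points are arrays, bars are group means of 3 arrays, and open points at the floor are arrays on which the miRNA was undetected, as mir-135a was on all 15 arrays of ESCs and day 1.

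In order of its group means, mir-135a was highest in control at day 5 (6.99 ± 0.05, SD, n = 3), followed by Wnt3a at day 5 (6.01 ± 1.80, or 7.05 without replicate 1). Next came Activin A at day 5 (5.35 ± 0.12), control at day 3 (5.26 ± 0.09), Wnt3a at day 3 (5.11 ± 0.06) and Activin A plus Wnt3a at day 5 (5.07 ± 0.09). mir-135a was lowest, where detected, with Activin A plus Wnt3a (3.98 ± 0.41) and with Activin A (3.86 ± 0.29) at day 3. Of the 7 neighbouring pairs in this order, 6 overlapped, and 1 did not: Activin A plus Wnt3a at day 5 against the same treatment at day 3. mir-135b was highest with Wnt3a at day 3 (8.34 ± 0.05) and lowest with Wnt3a at day 5 (7.33 ± 1.03, or 7.93 without replicate 1), with ESCs next to lowest (7.64 ± 0.11). Of its 12 neighbouring pairs, 10 overlapped. The 2 that did not were Wnt3a at day 3 above Wnt3a at day 1, and Activin A plus Wnt3a at day 3 above control at day 5.

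mir-135a* was detected on all 39 arrays. Its group means were 7.54 in ESCs, 5.83 in control at day 1, 8.36 in control at day 3 and 8.65 in control at day 5. mir-135a* thus had signal in ESCs and at day 1, where mir-135a had none. Of its 4 probes, 2 gave most of the signal, with medians of 33.7% and 44.3% of the total. Since mir-135a* shares a hairpin with mir-135a, the pair of strands is given side by side in what follows.

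The values that led to the choice of mir-135a were those of Activin A against control at day 3. There the log2 difference of mir-135a was -1.40 from the deposited totals and -0.98 with both probes counted on every array. mir-135b differed by -0.16 and mir-135a* by -0.74 between the same groups. Against the same controls, Activin A plus Wnt3a gave -1.28 for mir-135a (-0.96 with both probes counted), -0.60 for mir-135a* and 0.00 for mir-135b. Wnt3a against control gave -0.15 for mir-135a and 0.42 for mir-135b. These comparisons share their control arrays, and they are descriptions. Within the slide that held 2 control and all 3 Activin A arrays of day 3, mir-135a differed by -1.38 (Activin A minus control).

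The effect of adding Activin A to Wnt3a at day 3 compares neither control nor Activin A alone, although their arrays enter the estimate of its spread. mir-135a was lower on all 3 arrays of Activin A plus Wnt3a than on any Wnt3a array, by a difference of -1.13, or -0.85 with both probes counted on every array. Since mir-135a was chosen for its response to Activin A on this day, no p is given for it here. mir-135b was lower on 3 of 3 arrays by -0.42 (SE 0.05, 95% confidence interval -0.54 to -0.31, n = 3 arrays per group, limma adjusted p = 7.33e-05, and 0.000877 in a fit of these 2 groups alone). mir-135a* differed by -0.41 (SE 0.08, adjusted p = 0.00152, with 0.000142 to 0.307 over the alternatives, the last with a background correction fitted to the spot distribution, called normexp). The comparison called 50.6% of the 326 miRNAs tested, so that a call such as that of mir-135b is common here. With normexp correction, mir-135b gave 0.16 instead (adjusted p = 0.78), and it lost its call in a fit of all 39 arrays (adjusted p = 0.233, with 9.67e-06 to 0.78 over the alternatives). The combined treatment of day 3 shared its slide and scan session with day 5 arrays only, and no group linked that slide to the one that held the Wnt3a arrays, so treatment, slide and session cannot be told apart here.

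In the same comparison of day 3, 23.0% of all miRNAs rose and 27.6% fell. The lists counted next were chosen with earlier results of these data known, so their counts are descriptions. Of 11 tested miRNAs reported to act on Apc or other Wnt pathway genes, 5 rose and 2 fell (3 to 8 and 0 to 2 over the alternatives and omissions), with a median of 0.42 against -0.01 over all miRNAs tested. mir-27a, also reported to act on Apc, rose by 1.61 (adjusted p = 2.64e-08), and mir-335-5p, reported to act on secreted Wnt antagonists, fell by 2.51 (adjusted p = 9.28e-09, with 1.91e-10 to 0.47 over the alternatives, the last with normexp correction). Of 9 miRNAs reported to act on Activin and Nodal pathway genes, 6 rose and 2 fell (3 to 6 and 0 to 3), with a median of 0.85. mir-302b, reported to act on the Nodal antagonist Lefty, rose by 1.51 (adjusted p = 9.15e-08), and mir-15b, reported to act on the receptor Acvr2a, fell by 0.42 (adjusted p = 0.0253). mir-15b lost that call in 6 of 12 omissions of 1 array (adjusted p up to 0.0702), under scaling to the 75th percentile of all miRNAs, without the detection filter, in the series table as named and in a fit of all 39 arrays, and gave 0.43 with normexp correction (0.000456 to 0.716 over the alternatives). mir-142-3p, the 12th of the first list, was not tested because too few arrays detected it.

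At day 5, Activin A was compared with control on arrays other than those of day 3 that led to the choice of mir-135a. Earlier results of these data were known at that choice, so the tests of day 5 may not be independent of it. mir-135a was lower on all 3 Activin A arrays than on any control array, with a difference of -1.64 (SE 0.70, interval -3.23 to -0.04, n = 3 per group). Its adjusted p was 0.103, so mir-135a was not called with all arrays. Without Wnt3a replicate 1, the difference was the same by construction, the SE was 0.08, the interval -1.83 to -1.44 and the adjusted p 6.24e-07, and over all 12 omissions of 1 array the adjusted p ran from 6.24e-07 to 0.207. mir-135a was also called with all arrays under both scalings to the 75th percentile, with normexp correction (-0.79) and in a fit of all 39 arrays (adjusted p = 0.00218 to 0.0373, against 0.00218 to 0.331 over all alternatives). The fit of all 39 arrays takes in the 15 arrays where mir-135a was at the floor, which do not vary and so lower its p-value. mir-135b was higher on all 3 Activin A arrays, with a difference of 0.30 (SE 0.40, adjusted p = 0.63), and with an adjusted p of 0.00138 without Wnt3a replicate 1 (0.00138 to 0.752 over the omissions). mir-135a* fell by 0.81 (adjusted p = 0.0169, and 4.86e-06 without Wnt3a replicate 1). Its call was lost without control replicate 3 (adjusted p = 0.0587), with normexp correction (0.189) and with scaling to the 75th percentile of all miRNAs (0.12), with 3.7e-05 to 0.189 over the alternatives. Thus 0 of the 2 members were called with all arrays, where 37.5% of 368 miRNAs were, and 2 of 2 without Wnt3a replicate 1, where 61.7% of 363 were. On the slide that held 3 control and 2 Activin A arrays of day 5, the differences were -1.57 for mir-135a and 0.34 for mir-135b. With the slide as a block the adjusted p was 0.209 for mir-135a and 0.678 for mir-135b.

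The combined treatment against control at day 5 shares its controls with the comparison before it. mir-135a was again lower on 3 of 3 arrays, with a difference of -1.91 (SE 0.70, interval -3.50 to -0.32, adjusted p = 0.051), and without Wnt3a replicate 1 the adjusted p was 2.13e-07 (2.13e-07 to 0.116 over the omissions). It was called with all arrays in the same alternatives as before, when detection on all 3 arrays of a group was required (adjusted p = 0.0408), with both probes counted (0.0275) and with undetected miRNAs at the lowest signal detected on their array (0.0381, with 0.000349 to 0.443 over the alternatives). mir-135b was higher on 3 of 3 arrays, with a difference of 0.25 (SE 0.40, adjusted p = 0.694, and 0.0037 without Wnt3a replicate 1, with 0.0037 to 0.832 over the omissions). mir-135a* fell by 1.21 (SE 0.22, adjusted p = 0.00158, with 4.95e-08 to 0.0853 over the alternatives, and its call was lost with normexp correction). Of the 2 members, 0 were called with all arrays, against 46.2% of miRNAs, and 2 without Wnt3a replicate 1, against 68.6%. No day 5 array of Activin A plus Wnt3a shared a slide with a day 5 control, and with the slide as a block mir-135a gave -1.71 (adjusted p = 0.443) and mir-135a* -1.17 (adjusted p = 0.0853).

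Wnt3a alone against control at day 5 left the pair uncalled. mir-135a differed by -0.97 (interval -2.57 to 0.62, adjusted p = 0.424), and without replicate 1 by 0.07 (interval -0.15 to 0.28, adjusted p = 0.621, with 0.172 to 0.621 over the omissions). mir-135b differed by -0.49 (interval -1.40 to 0.42, adjusted p = 0.496), and without replicate 1 by 0.11 (interval -0.03 to 0.24, adjusted p = 0.211, with 0.209 to 0.667 over the omissions). The direction of both members thus rested on that array. Of the 2 members, 0 were called, and 8.15% of miRNAs were, or 35.8% without replicate 1. mir-135a* gave -0.12 with replicate 1, where it was at 9.16, and -0.43 without it (adjusted p = 0.833 and 0.00173).

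Adding Activin A to Wnt3a at day 5 gave a difference of -0.94 for mir-135a (interval -2.53 to 0.65, adjusted p = 0.329). Without Wnt3a replicate 1 it was -1.98 (interval -2.19 to -1.76, adjusted p = 4.72e-07, with 4.72e-07 to 0.722 over the omissions), and all 3 arrays of Activin A plus Wnt3a were below the remaining 2. For mir-135b the difference was 0.74 (interval -0.18 to 1.65, adjusted p = 0.184), and without replicate 1 it was 0.14 (adjusted p = 0.0817, with 0.0689 to 0.328 over the omissions). A fit of all 39 arrays called it with replicate 1 included (adjusted p = 0.0112, with 0.0112 to 0.358 over the alternatives). mir-135a* fell by 1.09 (adjusted p = 0.00353, with 4.11e-07 to 0.134 over the alternatives, the last with normexp correction), and by 0.77 without replicate 1 (adjusted p = 1.52e-05). Of the 2 members, 0 were called with all arrays, against 41.0% of miRNAs, and without replicate 1 mir-135a was called, against 55.1%. All arrays of these groups were on the same slide.

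Adding Wnt3a to Activin A at day 5 was the comparison closest to the aim of the study. mir-135a differed by -0.28 (interval -1.87 to 1.32, adjusted p = 1), and without Wnt3a replicate 1 the interval was -0.47 to -0.09 (adjusted p = 0.051, with 0.051 to 1 over the omissions). The 3 arrays of Activin A plus Wnt3a lay below the 3 Activin A arrays for mir-135a. mir-135b differed by -0.06 (interval -0.97 to 0.86, adjusted p = 1), and without Wnt3a replicate 1 the interval was -0.18 to 0.07 (adjusted p = 0.608, with 0.608 to 1 over the omissions). mir-135a* differed by -0.40 (adjusted p = 0.548), and was called without Wnt3a replicate 1 (adjusted p = 0.00159). On the slide that held all 3 arrays of the combined treatment and 1 Activin A array of day 5, the differences were -0.14 for mir-135a and 0.020 for mir-135b, so the direction of mir-135b turned there. Of the 2 members, 0 were called in either form, where 4.89% of miRNAs were called with all arrays and 19.6% without Wnt3a replicate 1. At day 3, Activin A plus Wnt3a against Activin A gave 0.13 for mir-135a (0.016 with both probes counted) and 0.16 for mir-135b, as a description.

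**Figure D2:**
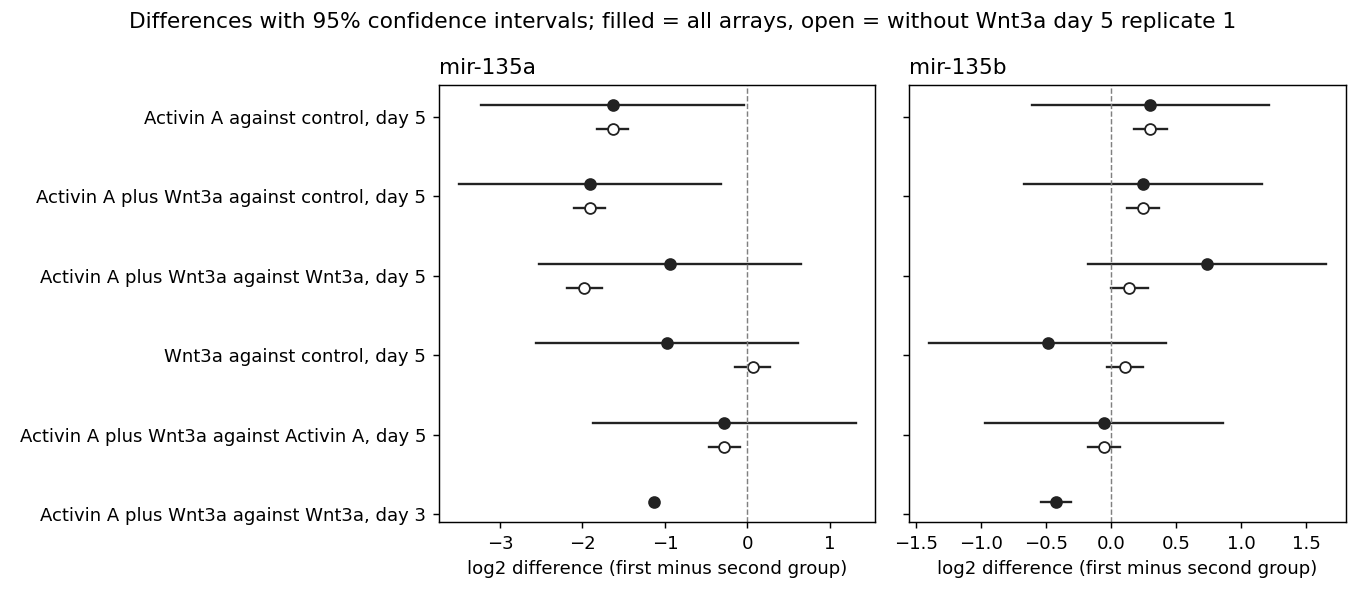
Log2 differences between groups (horizontal axis, first group minus second) for mir-135a and mir-135b, with 95% confidence intervals, except for mir-135a at day 3, where no test is given. Filled points use all arrays and open points leave out Wnt3a day 5 replicate 1; for mir-135a, Activin A against control at day 5 keeps its value of -1.64 while its interval shrinks from -3.23 to -0.04 to -1.83 to -1.44.

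Whether the members responded to Activin A differently from each other was asked within each array of day 5. Probes differ in brightness, so the log2 level of mir-135a minus that of mir-135b has no meaning on its own, and only its change between arrays is read. It was -0.77, -0.92 and -0.82 in control and -2.77, -2.71 and -2.83 with Activin A. It was -2.21, -0.98 and -0.78 with Wnt3a, and -3.03, -2.94 and -3.02 with Activin A plus Wnt3a. All 6 arrays with Activin A lay below all 6 without it, Wnt3a replicate 1 included. The change of mir-135a with Activin A minus that of mir-135b was -1.81, averaged over the presence and absence of Wnt3a. The two-sided exact permutation p was 0.005, the smallest that the 400 arrangements allow. Leaving out 1 array at a time gave -2.03 to -1.67 with exact permutation p between 0.005 and 0.01. This shows that the members changed unequally, and not that either was unchanged.

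**Figure D3:**
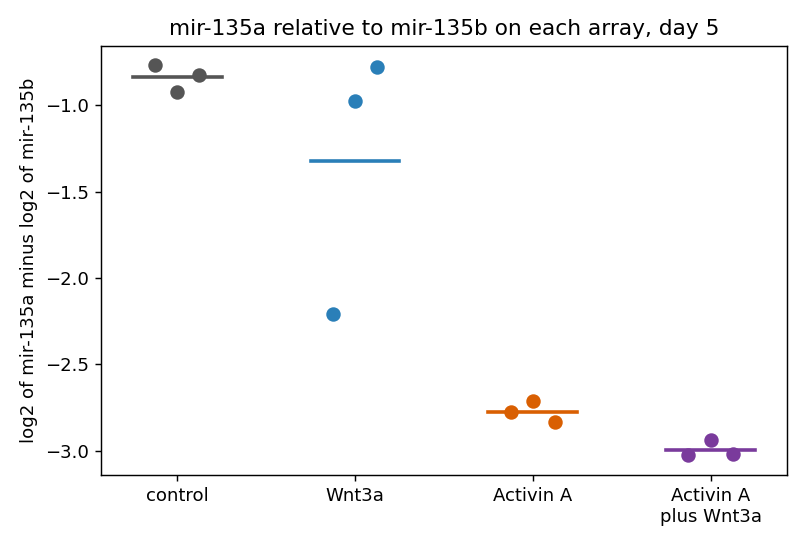
Log2 level of mir-135a minus that of mir-135b on each array of day 5 (vertical axis), by treatment (horizontal axis). Points are arrays and bars are means of 3 arrays; the 6 arrays with Activin A lie between -3.03 and -2.71, below the 6 without it.

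Differences between effects were tested as well. The effect of Activin A given with Wnt3a on mir-135b was 1.16 higher at day 5 than at day 3 (SE 0.33, adjusted p = 0.0103), and 0.57 higher without Wnt3a day 5 replicate 1 (adjusted p = 2.87e-06, with 2.87e-06 to 0.0248 over the 39 omissions). That test called 27.9% of 373 miRNAs, and with normexp correction mir-135b gave 0.31 (adjusted p = 0.768, with 0.00412 to 0.768 over the alternatives). For mir-135a, given without a test, the same value was 0.19, or -0.85 without that replicate and -0.082 with both probes counted. At day 5, the effect of Activin A with Wnt3a minus its effect without Wnt3a was 0.70 for mir-135a (adjusted p = 0.765) and 0.43 for mir-135b (adjusted p = 0.751), in a test that called 3.26% of 368. Without Wnt3a replicate 1 these became -0.34 for mir-135a (adjusted p = 0.105) and -0.16 for mir-135b (adjusted p = 0.221). For mir-135b, the effect of Activin A at day 5 minus that at day 1 was 0.44 (adjusted p = 0.384, in a test that called 31.4%), with an adjusted p of 1.6e-05 without Wnt3a day 5 replicate 1. With normexp correction its direction turned, at -0.071 (adjusted p = 0.956).

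At day 1 only mir-135b of the pair was detected, and its differences were uncalled but depended on the scaling and background correction. Activin A against control gave -0.14 (SE 0.05, interval -0.25 to -0.03, adjusted p = 0.163), and 0.20 with normexp correction, with 0 of 1 member called against 3.33% of 240 miRNAs. Wnt3a against control gave 0.11 for mir-135b (interval 0.00 to 0.21, adjusted p = 0.138), and values just below 0 under both scalings to the 75th percentile, against 20% called. Activin A plus Wnt3a against control gave -0.02 for mir-135b (interval -0.13 to 0.09, adjusted p = 0.772), against 25% called. That difference was 0.38 with normexp correction, and it was called at -0.34 under scaling to the 75th percentile of miRNAs detected on all arrays (adjusted p = 0.00438, with 0.00438 to 1 over the alternatives). mir-135a was not tested at day 1, since no array detected it.

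Over time, mir-135a was detected from day 3 on. A fold against undetected arrays is taken against the lowest signal detected on those arrays. It is a lower bound only if an undetected miRNA lay below that signal, which was not tested. Values at the floor do not vary, so no p against the floor is given. mir-135a also passed the detection filter through days 3 and 5 alone, so no p with filled-in values is given either. In control, mir-135a was at least 5.46-fold higher at day 5 than at day 1 (3 of 3 arrays detected against 0 of 3). With Activin A the bound was 2.00-fold between the same days. With Wnt3a mir-135a was at least 2.03-fold higher at day 3 than at day 1, while the log2 difference with normexp correction was 0.28. The bounds were also set against the lowest signal on the scale that counts both probes. They were then 15.8-fold (control), 4-fold (Activin A) and 4.65-fold (Wnt3a). In control the day 5 level was 6.99 (log2) either way, while the lowest signal at day 1 went from 4.54 to 3.00. The size of the bounds thus depends on the scale that sets the lowest signal. With Activin A plus Wnt3a its level at day 3 was under the lowest signal detected at day 1, a difference of -0.17 against that signal. With both probes counted the difference from the lowest signal on that scale was 1.01. The sign thus depends on the probes counted and the scale of the lowest signal, and no fold and no change is given. With undetected values at the floor, these comparisons called 69.4% (control), 60.9% (Activin A), 59.5% (Wnt3a) and 57.4% (Activin A plus Wnt3a) of 373 miRNAs, so a call is common among them. The day 5 arrays were on other slides and in another scan session than those of day 1. Day and slide therefore cannot be told apart in the folds of control and Activin A. The Wnt3a arrays of days 1 and 3 were on 2 slides of the same session, and control arrays of day 3 lay on both slides. A slide block cannot separate day from slide for mir-135a with Wnt3a, since its day 1 values are all at the floor, so no result of it is given. Control replicate 1 of day 3 shared a slide with day 1 arrays, and on that slide mir-135a was detected on it alone.

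Between day 3 and day 5, mir-135a differed by 0.90 with Wnt3a (adjusted p = 0.0843), and by 1.94 without Wnt3a replicate 1 (adjusted p = 5.98e-12, with 5.98e-12 to 0.605 over the omissions). With all arrays it was called under both scalings to the 75th percentile (1.16 and 0.98) and with normexp correction (0.63, adjusted p = 0.00161, with 0.00161 to 0.713 over the alternatives). With Activin A plus Wnt3a it differed by 1.09, given without a test, and by 0.81 with both probes counted. Its value was 2.43 with quantile normalisation of log2 signals and 0.12 with normexp correction. mir-135b fell by 1.00 with Wnt3a (adjusted p = 0.000831), and the difference was -0.41 without replicate 1. It lost its call with normexp correction (-0.16, adjusted p = 0.761) and when the 2 groups were fitted alone (adjusted p = 0.247, with 0.000294 to 0.761 over the alternatives). With Activin A plus Wnt3a, mir-135b differed by 0.16 (adjusted p = 0.956, and 0.0308 without Wnt3a day 5 replicate 1). Of the 2 members, 1 was called with Wnt3a, against 44.0% of miRNAs, and mir-135b was not called for the combined treatment, against 13.9%. The Wnt3a arrays of days 3 and 5 were on different slides and in different scan sessions with no group to link them, so day, slide and session cannot be told apart in the differences with Wnt3a. The arrays of the combined treatment were on 2 slides of 1 session, and with the slide as a block mir-135b gave 0.27 and mir-135a 1.29.

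With all arrays, mir-135b passed none of the tests from ESCs or day 1 onwards, and without Wnt3a day 5 replicate 1, which enters their spread but not their means, it passed each of them. From ESCs to control day 1 it differed by 0.46 (interval -0.03 to 0.94, adjusted p = 0.163, and 5.58e-08 without that array), in a comparison that called 30.3%. From day 1 to day 5 it differed by -0.28 in control (adjusted p = 0.316, and 3.48e-05 without it) and by 0.17 with Activin A (adjusted p = 0.602, and 0.00725 without it). From day 1 to day 3 it differed by 0.13 with Wnt3a (adjusted p = 0.738, and 0.0326 without it) and by -0.17 with Activin A plus Wnt3a (adjusted p = 0.616, and 0.00738 without it). Fits of the 2 groups compared also called each of these differences (adjusted p = 0.00278 to 0.047). The share of all miRNAs called without that array, or in those fits, is not given, so how common such calls are is not known. For Activin A against control at day 5, leaving that array out raised the share called from 37.5% to 61.7%. Both scalings to the 75th percentile called the first of these mir-135b differences, and scaling over all miRNAs called the second at -0.94. Slide and scan session differed with the day in the control, Activin A and combined treatment comparisons and slide alone with Wnt3a, whereas ESCs and control day 1 shared 1 slide. The direction of each but the first turned under at least 1 alternative, and the highest adjusted p over the omissions of 1 array was between 0.363 and 0.892. mir-135a*, by contrast with mir-135b, fell by 1.71 from ESCs to control day 1 (adjusted p = 1.47e-10, with 1.27e-12 to 0.126 over the alternatives, the last with normexp correction) and rose by 2.82 from day 1 to day 5 in control (adjusted p = 3.22e-16).

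The probes of each member moved together. Over the 24 arrays that detected mir-135a, its first probe gave 55.8% to 68.4% of the sum of both probe signals, although on 3 of them the deposited total left the second probe out. Over 39 arrays the first probe of mir-135b gave 41.7% to 48.6%. In the signal as deposited, Activin A against control at day 5 gave -1.22 and -1.29 for the probes of mir-135a, and 0.69 and 0.67 for those of mir-135b. Activin A plus Wnt3a against Wnt3a at day 3 gave -0.84 and -0.75 for mir-135a, and -0.42 and -0.51 for mir-135b. Activin A against control at day 3 gave -0.99 and -1.12 for mir-135a. For mir-135b it gave 0.033 and 0.031, where the difference after normalisation was -0.16.

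Across arrays, the log2 levels of mir-135a and mir-135b had a Pearson correlation of 0.62 at day 3 (n = 12 arrays) and 0.38 at day 5 (n = 12). Without Wnt3a replicate 1 the day 5 value was -0.81 (n = 11), so its sign rested on that array. mir-135a and mir-135a* had 0.93 at day 3, 0.30 at day 5 and 0.91 at day 5 without that replicate. These arrays share treatments, slides and normalisation, and the correlations are descriptions.

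The miRNAs with patterns most like the members were found among 267 miRNAs by the Pearson correlation of the 13 group means. For mir-135a they were mir-185 (0.987), mir-340-5p (0.984), mir-710 (0.983), mir-103 (0.982) and mir-711 (0.980). Of these, mir-185, mir-340-5p, mir-710 and mir-711 were, like mir-135a, at the floor in ESCs and in control at day 1. Over the 8 group means of days 3 and 5 the correlations with mir-135a were 0.930 for mir-185, 0.867 for mir-340-5p, 0.849 for mir-710, 0.891 for mir-103 and 0.825 for mir-711. mir-135b had no close companion by these means: its nearest were mir-299* (0.663), mir-183 (0.641), mir-674* (0.615), mir-148a (0.606) and mir-195 (0.604). Over days 3 and 5 their correlations with mir-135b were 0.689, 0.638, 0.572, 0.623 and 0.661 in that order. The group means include Wnt3a day 5 replicate 1, without which the Wnt3a day 5 mean of mir-135b goes from 7.33 to 7.93. Correlations without that array are not given.

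**Figure D4:**
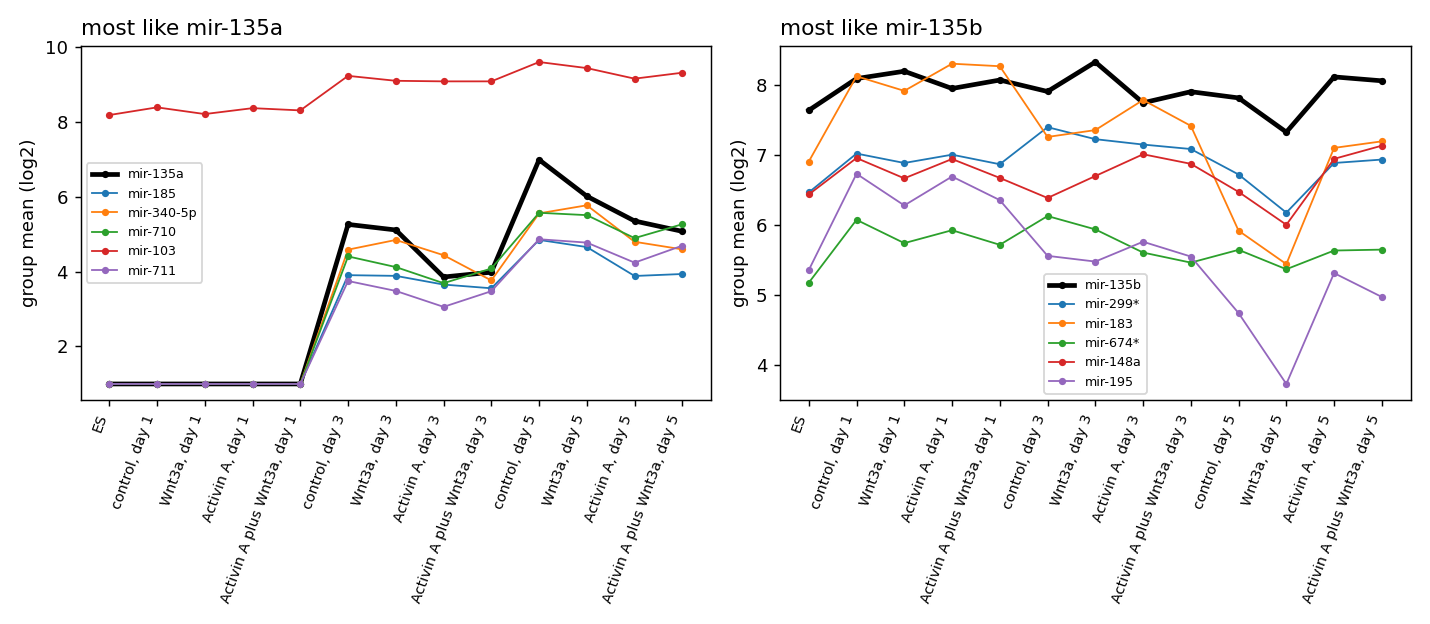
Group means (log2, vertical axis) of mir-135a with the 5 miRNAs most like it, and of mir-135b with the 5 most like it, over the 13 groups (horizontal axis). Each point is the mean of 3 arrays; 4 of the 5 companions of mir-135a share its floor in ESCs and at day 1 in control.

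The other miRNAs of the same pathways were followed through lists chosen by their reported targets. These lists and the marker lists below were chosen with earlier results of these data known, so their counts are descriptions. Of 11 tested miRNAs reported to act on Apc or other Wnt pathway genes, 6 rose and 1 fell with Activin A against control at day 5 (5 to 9 and 1 to 2 over the alternatives and omissions), with a median of 0.92 against -0.03 over all miRNAs tested, of which 18.2% rose and 19.3% fell. Without Wnt3a replicate 1, 9 rose and 2 fell, where 61.7% of all miRNAs were called. mir-200a, reported to act on beta-catenin, rose by 3.60 (adjusted p = 5.14e-06), and mir-335-5p fell by 1.54 (adjusted p = 0.00151). The combined treatment against control gave 7 higher and 1 lower (4 to 10 and 0 to 1 over the alternatives and omissions, with 4 higher when the slide was a block), against 21.5% and 24.7% of all miRNAs, and 10 higher and 1 lower without Wnt3a replicate 1 (against 68.6% called), and mir-200a rose by 3.56. With Wnt3a against control, 0 were called with all arrays, where 5.43% rose and 2.72% fell, and 8 rose without replicate 1, where 35.8% of all miRNAs were called. mir-135a thus lay lower with Activin A at day 5 while most called miRNAs of this list, mir-27a (2.02) and mir-27b (1.93) included, lay higher.

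Of the 9 miRNAs reported to act on Activin and Nodal pathway genes, 5 rose and 1 fell with Activin A against control at day 5, with a median of 1.72, where 18.2% of all miRNAs rose and 19.3% fell. Without Wnt3a replicate 1, 6 rose and 3 fell, where 61.7% of all miRNAs were called. mir-302a rose by 2.16 (adjusted p = 3.87e-07), and mir-16, reported to act on Acvr2a, fell by 1.13 (adjusted p = 0.00183). mir-16 lost its call under both scalings to the 75th percentile (adjusted p = 0.0541 and 0.0856, with 9.72e-07 to 0.0856 over the alternatives). For the combined treatment against control, 5 rose and 1 fell, with a median of 1.62, where 21.5% of all miRNAs rose and 24.7% fell. The number that fell was 0 to 3 over the alternatives and omissions in each of these 2 comparisons. With Wnt3a against control, 1 rose and 2 fell (0 to 2 and 0 to 6 over the alternatives and omissions), where 5.43% of all miRNAs rose and 2.72% fell. Without replicate 1, 2 rose and 6 fell, where 35.8% were called.

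The summed signal of neural markers was lower with Activin A, as mir-135a was, but single markers differed from it. The summed normalised signal of the 5 neural markers (mir-124, mir-9, mir-9*, mir-219 and mir-128) at day 5 was 1002, 772 and 921 in control and 738, 1851 and 1041 with Wnt3a. It was 107, 101 and 97.6 with Activin A, and 53.8, 57.6 and 54.2 with Activin A plus Wnt3a. At day 3 it was 272, 271 and 213 in control, 226, 238 and 258 with Wnt3a, 125, 122 and 125 with Activin A, and 68.9, 59.6 and 69.5 with Activin A plus Wnt3a. This sum was lower on all arrays with Activin A than on any without it at days 3 and 5. On Wnt3a replicate 1 of day 5 mir-135a was low while the sum was 738. At day 3 the group mean of mir-9 was 5.86 (log2) with Activin A, 5.27 in control and 5.00 with Wnt3a, and that of mir-9* was 4.52, 2.53 and 3.19, while mir-124 was at 3.93, 6.02 and 5.78, mir-128 at 4.77, 4.94 and 4.84, and mir-219 was undetected with Activin A and at 6.74 and 6.85 in the others. The combined treatment gave 4.88 for mir-9, 1.52 for mir-9* (1 of 3 arrays detected), 3.72 for mir-124 and 4.40 for mir-128 at day 3, with mir-219 undetected. At day 1, where mir-135a was undetected, mir-124 was detected on all arrays with group means of 5.37 to 5.72.

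The probes with the highest signal in this sum at days 3 and 5 were those of mir-219 on arrays without Activin A and of mir-9 on arrays with it, which does not rank their abundance, since probes differ in brightness. With Activin A against control at day 5, 4 of 5 neural markers fell (2 with normexp correction, without the detection filter or with the slide as a block, and 2 to 5 over the alternatives and omissions), against 19.3% of all miRNAs, and mir-124, the defining neuronal miRNA, fell by 4.61 (adjusted p = 1.55e-08). Against the same controls, Activin A plus Wnt3a gave 4 of 5 lower, against 24.7% of all miRNAs (5 without Wnt3a replicate 1, against 68.6% called), and mir-124 fell by 4.70. With Activin A plus Wnt3a against Wnt3a at day 3, 4 of 5 fell (1 to 4 over the alternatives and omissions, against 27.6% of all miRNAs), mir-124 by 2.06 (adjusted p = 3.32e-07), and mir-219 was undetected on 3 of 3 arrays. The part of neural cells in the levels of mir-135a was not tested. In such bulk RNA, fewer cells of a type and less RNA per cell cannot be told apart.

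Markers of undifferentiated ESCs moved the opposite way. The summed signal of the 9 miRNAs of the mir-290 to mir-295 cluster was 36360, 35800 and 36020 in ESCs, where the probes of mir-294 gave the highest signal. At day 5 it was 7896, 8606 and 8263 in control, 14420, 11020 and 12410 with Wnt3a, 29430, 26490 and 28290 with Activin A, and 31880, 32840 and 33960 with Activin A plus Wnt3a. In both comparisons of Activin A groups with control at day 5, 8 of 9 rose and 0 fell, against 18.2% (Activin A) and 21.5% (Activin A plus Wnt3a) of all miRNAs that rose, while mir-135a was lower. Quantile normalisation gives the brightest miRNA of each array the same value, which limits what the sum can show where mir-294 is the brightest. The part of these cells in the result was not tested.

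The summed signal of fibroblast feeder markers was highest where mir-135a was undetected. At day 3, mir-199a-3p was the only one of them detected, and it divided as mir-135a did. The summed signal of the 5 feeder markers was 383, 461 and 417 in ESCs, with the highest signal from mir-199a-3p, and between 851 and 946 at day 1. At day 3 the sum held mir-199a-3p alone. It was between 17.7 and 28.0 on the 6 arrays without Activin A and between 0 and 10.3 on the 6 with it. At day 5 it was 24.6, 24.3 and 26.0 in control, 22.1, 25.4 and 22.0 with Activin A, 66.9, 62.8 and 60.2 for the combined treatment, and 5.65, 34.5 and 36.2 with Wnt3a, so that replicate 1 of Wnt3a gave the lowest value, as for mir-135a. The part of these cells in the result was not tested either. Of 4 gut and liver endoderm markers, mir-122, mir-192 and mir-194 were undetected on all arrays. mir-375, found in pancreas and gut, was undetected in control at day 5, where mir-135a was highest. On that day it was at 9.37, 3.03 and 5.32 with Wnt3a, 49.4, 47.0 and 50.1 with Activin A and 69.6, 76.5 and 87.1 with Activin A plus Wnt3a. At day 3 mir-375 was at 21.1, 13.1 and 20.7 with Wnt3a, 10.3, 9.51 and 9.20 with Activin A and 24.3, 17.2 and 21.6 for the combined treatment, and it was detected on 1 of 3 control arrays. It was thus detected with Wnt3a alone as well as with Activin A.

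**Figure D5:**
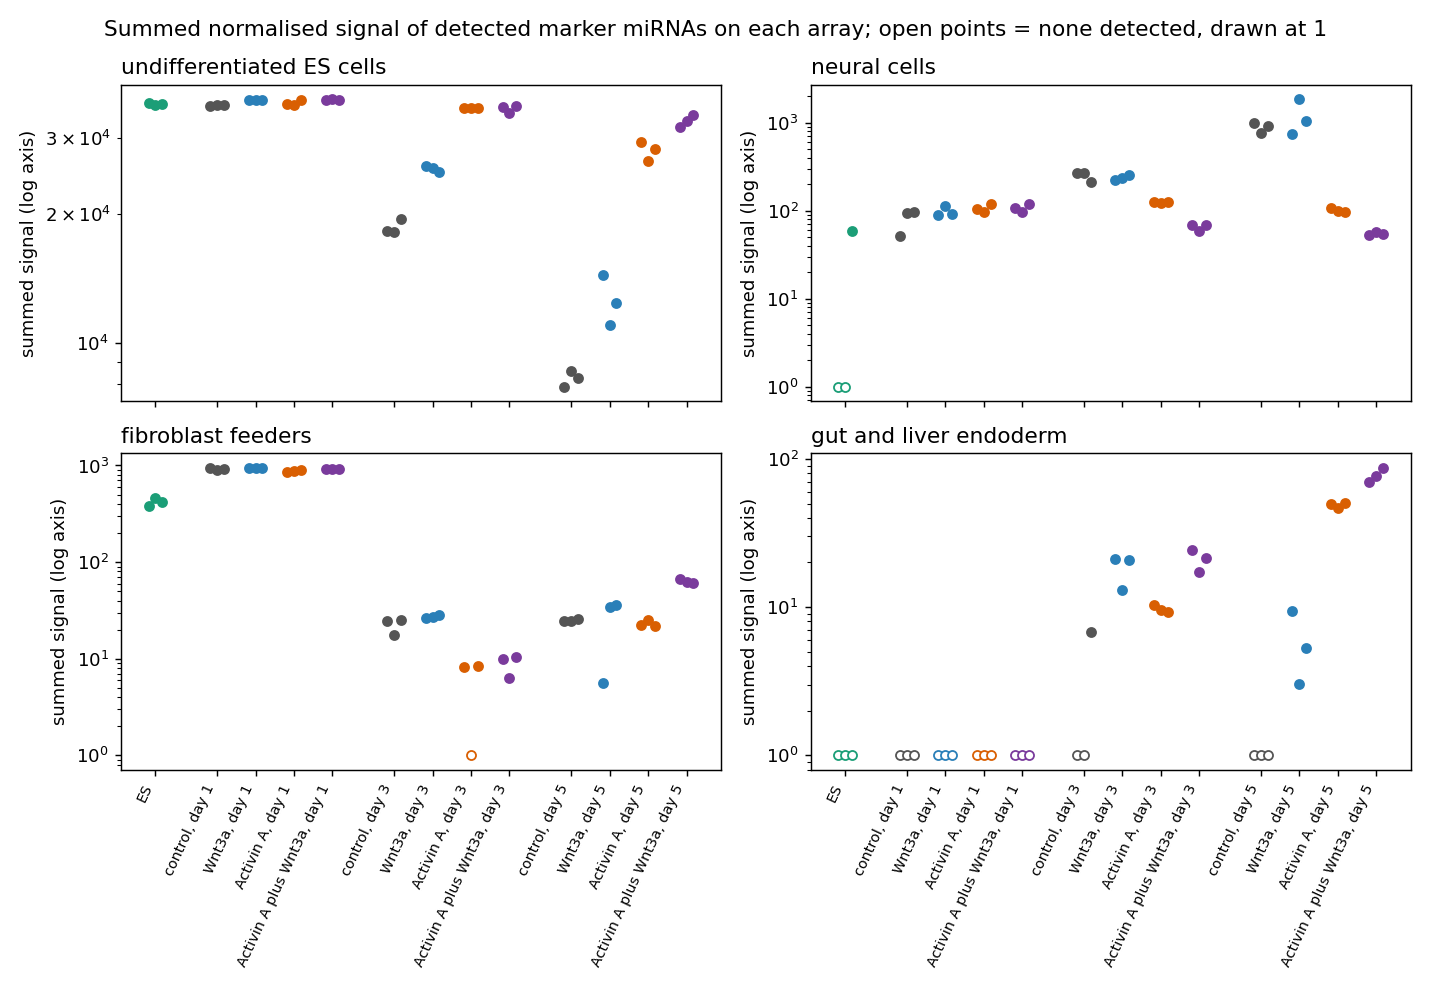
Summed normalised signal of the detected markers of 4 cell types on each array (vertical log axis), by group (horizontal axis). Open points at 1 are arrays that detected none; the neural sum at day 5 is between 53.8 and 107 with Activin A and between 738 and 1851 without it.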

How the data were processed

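The deposited scanner files of 39 arrays hold intensity values per spot, probe and miRNA, which the authors made with Agilent Feature Extraction (9.5.3.1 in their processing notes, 10.7.3.1 in the headers), with undetected totals set to 0.1. The deposited detection flags are of another unit (other), 1 where the software detected the miRNA. The authors deposited a series table of log2 values, used only as an alternative.

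Total gene signals were quantile normalised over 39 arrays, raised to a floor of 2 and log2 transformed. miRNAs detected on at least 2 of 3 arrays of a group were tested with limma 3.58.1 and statmod 1.5.0 in R 4.3.3, with Benjamini-Hochberg adjustment over all miRNAs tested and calls at adjusted p under 0.05. Contrasts within a day used its 12 arrays and those over time all 39. An exact permutation test used Python 3.11.15, numpy 2.4.6 and pandas 2.3.3. The fit was tested on simulated data. Named miRNAs were the members, mir-135a*, the 5 most like each member, and the extremes of the lists (Wnt pathway, Activin and Nodal pathway, and markers of ESCs, neural cells, feeders, and gut and liver endoderm). The members and lists were chosen with earlier results of these data known. Alternatives were the scaling, background correction, floor, detection filter, fit, series table, slide and replicate blocks, and omission of each array; those for differences of effects, mir-135a* and the lists, and the sum of both probes, undetected values at the lowest detected signal and a fit of 2 groups at day 3, were chosen after seeing the data.

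Replicates of the same number were checked for pairing. In 3 of 16 comparisons every correlation between same-number arrays was over 0.1 (range -0.491 to 0.356), and arrays were treated as unpaired. Depth was 183 to 375 miRNAs detected per array.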

Additional observations from a re-analysis of the deposited data

Results flagged for a closer look

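The response of mir-135b to Activin A given with Wnt3a differed between day 3 and day 5: the difference of the log2 differences was 1.16 by a test of that difference (adjusted p = 0.0103), and 0.57 without Wnt3a day 5 replicate 1 (adjusted p = 2.87e-06). mir-135b was 0.42 lower than with Wnt3a alone at day 3, a difference of -0.42, and gave 0.74 at day 5 (0.14 without Wnt3a replicate 1). With normexp background correction the day 3 value was 0.16 and the difference of differences 0.31, without a call (adjusted p = 0.768, with 0.00412 to 0.768 over the alternatives). Slide and treatment cannot be told apart at day 3, and the part of Wnt3a replicate 1 is given by the value without it.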

How the results depend on the processing

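For 23 tested results of mir-135a and mir-135b (differences between effects not counted), 785 alternatives and omissions of 1 array were run: 728 kept direction and side of the threshold, 3 lost the call in the same direction, 36 gained one and 18 turned the direction. Another 47 runs of alternatives added later are not in these counts: 45 kept both and 2 gained a call. Also not counted are 6 results of mir-135a: those against values at the floor, and those on the combined treatment of day 3, where the choice of mir-135a leaves only a description. The within-array difference between the members kept both in all 9 alternatives and 12 omissions. Alternatives for the differences between effects, mir-135a* and the lists, the sum of both probes, undetected values at the lowest detected signal and the fit of 2 groups at day 3 were added after the data were seen. Except where the construction shows it (a changed estimate of the spread in another fit, or an array left out), the cause was not tested for any change below. Normexp background correction gave, for mir-135b, 0.20 (Activin A, day 1, against control), 0.38 (Activin A plus Wnt3a, day 1, against control), 0.026 (Activin A plus Wnt3a against Activin A, day 5), 0.16 (against Wnt3a, day 3), 0.26 (control, day 5 against day 1), -0.39 and -0.16 (Wnt3a, day 3 against day 1 and day 5 against day 3), 0.31 and -0.071 (effect at day 5 minus that at day 3 with Wnt3a, and minus that at day 1). It gave, for mir-135a, -0.79 and -0.93 (Activin A, and Activin A plus Wnt3a, against control, day 5), 0.28 and 0.63 (Wnt3a, day 3 against day 1 and day 5 against day 3), 0.16 (Activin A plus Wnt3a, day 3 against day 1) and -0.51 (effect at day 5 minus day 3). It gave, for mir-135a*, -0.58 and -0.79 (Activin A, and Activin A plus Wnt3a, against control, day 5), -0.63 and -0.51 (against Wnt3a, days 5 and 3) and -0.73 (control, day 1 against ESCs), and 0.43 for mir-15b at day 3. Scaling to the 75th percentile of miRNAs detected on all arrays gave, for mir-135b, -0.0057 and -0.34 (Wnt3a, and Activin A plus Wnt3a, against control, day 1), 0.66 (control, day 1 against ESCs) and 0.054 (Activin A plus Wnt3a, day 3 against day 1), and for mir-135a -1.68 and -1.87 (Activin A, and Activin A plus Wnt3a, against control, day 5), 1.16 and 1.07 (Wnt3a, and Activin A plus Wnt3a, day 5 against day 3) and -0.091 (effect at day 5 minus day 3). Scaling over all miRNAs gave, for mir-135b, -0.0047 (Wnt3a, day 1), 0.66 (control, day 1 against ESCs), -0.94 and -0.38 (control, and Activin A, day 5 against day 1) and -0.34 (Wnt3a, day 3 against day 1). It gave, for mir-135a, -1.47 and -1.63 (the same 2 comparisons), 0.98 and 1.08 (Wnt3a, and Activin A plus Wnt3a, day 5 against day 3), and -0.58 for mir-135a* (Activin A against control, day 5). The same scaling moved the median difference of the miRNAs detected on all arrays from 0 to -0.222 for Wnt3a against control at day 1. A fit of all 39 arrays includes, for mir-135a, those at the floor, which do not vary. Such fits changed the call at -1.64 and -1.91 (mir-135a, Activin A, and Activin A plus Wnt3a, against control, day 5), 0.74 and -0.42 (mir-135b, Activin A plus Wnt3a against Wnt3a, days 5 and 3). Fits of 2 groups alone did so for mir-135b at 0.46 (control, day 1 against ESCs), -0.28 and 0.17 (control, and Activin A, day 5 against day 1) and 0.13 and -0.17 (Wnt3a, and Activin A plus Wnt3a, day 3 against day 1), and for mir-135b with Wnt3a from day 3 to day 5, which fell by 1.00, and in mir-135a at 1.09 (Activin A plus Wnt3a, day 5 against day 3, given only as a description). For mir-135a with Activin A plus Wnt3a, quantile normalisation of log2 signals gave 1.20 and a floor of 8 gave 0.98 (day 3 against day 1), while day 5 against day 3 gave 2.43 on log2 signals, 2.20 from the series table as named and 1.61 from it as matched to arrays. Required detection on all 3 arrays of a group gave mir-135a a call at -1.91 (Activin A plus Wnt3a against control, day 5). The series table as named gave 0.39 (mir-135a) and 0.085 (mir-135b) for Activin A plus Wnt3a against Activin A at day 5, -0.011 for mir-135b (Activin A, day 5 against day 1) and 1.10 for mir-9 at day 3. Counting both probes of mir-135a on every array gave it a call at -1.81 (combined treatment against control, day 5), turned its effect at day 5 minus day 3 to -0.082, and moved Activin A plus Wnt3a against Wnt3a at day 3 to -0.85. Undetected values at the lowest detected signal gave mir-135a a call in the first of these at -1.91. The same setting gave 1.00 for Activin A, day 5 against day 1, given without a test. It turned Activin A plus Wnt3a, day 3 against day 1, to -0.17. The slide as a block gave -1.17 for mir-135a* (combined treatment against control, day 5) and 0.020 for mir-135b (against Activin A).

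Leaving out 1 array gave these ranges for mir-135a: -1.68 to -1.57 (Activin A against control, day 5), -1.55 to 0.066 (Wnt3a), -1.95 to -1.87 (Activin A plus Wnt3a), -1.98 to -0.36 (Activin A plus Wnt3a against Wnt3a), 0.32 to 1.94 and 0.86 to 1.27 (day 5 against day 3, Wnt3a and Activin A plus Wnt3a), -0.34 to 1.28 (effect with Wnt3a minus without, day 5) and -0.85 to 0.77 (effect at day 5 minus day 3). For mir-135b they were -0.048 to 0.018 (Activin A plus Wnt3a, day 1), 0.27 to 0.34, -0.80 to 0.11 and 0.19 to 0.27 (Activin A, Wnt3a and Activin A plus Wnt3a against control, day 5), 0.40 to 0.52 (control, day 1 against ESCs), -0.30 to -0.24 and 0.13 to 0.20 (control, and Activin A, day 5 against day 1), 0.10 to 0.16 and -0.18 to -0.15 (Wnt3a, and Activin A plus Wnt3a, day 3 against day 1), 0.10 to 0.18 (Activin A plus Wnt3a, day 5 against day 3), -0.16 to 0.74 (effect with Wnt3a minus without) and 0.40 to 0.48 (effect at day 5 minus day 1). For mir-135a* the range was -0.85 to -0.77 (Activin A against control, day 5). For mir-135a with Activin A plus Wnt3a, day 5 against day 3, given without a test, 2 omissions changed the call. The remaining changes of call or direction within these ranges came from omitting Wnt3a day 5 replicate 1, with these others. For mir-135a, omitting Wnt3a day 5 replicate 2 or 3 gave a call in the combined treatment against control, and omitting Activin A plus Wnt3a day 3 replicate 1 turned the effect at day 5 minus day 3. For mir-135b, omitting control day 1 replicate 3 turned the combined treatment at day 1. For mir-135a*, omitting control day 5 replicate 3 ended the call.

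Replicate numbers showed little pairing: in 3 of 16 comparisons every same-number correlation was over 0.1, and they ran from -0.491 to 0.356. An added block for replicate number changed no call of mir-135a, mir-135b or mir-135a*, for example -0.42 for mir-135b in Activin A plus Wnt3a against Wnt3a at day 3. Signal over background limits mir-135a: the lowest normalised signal detected on an array was 12.3 to 34.4 in ESCs and at day 1 but 2 to 11.3 at days 3 and 5. By the deposited totals, a level as low as that of Activin A plus Wnt3a at day 3 could thus have gone undetected at day 1. With both probes counted that level was 4.37 (log2), above the lowest signal of 3.36 at day 1 on that scale.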
